A study of Homo sapiens with 6 samples.

Results

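The tumour suppressor p53 is a transcription factor that switches on genes of cell cycle arrest, DNA repair, metabolism and cell death. The set examined here holds 31 genes, listed as targets of p53 or as proteins that control or bind it. They were chosen by gene symbol, so that every probe set whose only annotated symbol is one of these genes counts as a member. In all, 93 of 44988 single-symbol probe sets belonged to 29 of the 31 genes, out of 18132 genes with such a probe set. BTG2 and FDXR were not analysed here.

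The cells were 786-O, an established human cell line of kidney cancer (renal cell carcinoma). Lentivirus carried, per the labels, either a negative control short hairpin RNA (shNC) or an shRNA against ERCC6L (shERCC6L, titled shRNA in the labels), with 3 arrays per group, and both groups received the virus and the same culture medium. ERCC6L, also known as PICH, is a DNA translocase of ultrafine anaphase bridges, the stretched DNA that still links separating chromatids, and the comparison asks whether p53-pathway transcripts differ once it is reduced. Neither the number of hairpins nor the origin of the arrays, from separate infections or from 1 culture, is in the labels, so the p-values rest on a spread between arrays that may be technical.

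In most cells p53 is kept scarce by the ubiquitin ligase MDM2 and its relative MDM4. DNA damage or nucleolar stress frees it from them, and it then raises its targets, MDM2 among them, which closes a feedback loop. Delayed or faulty mitosis is another known trigger of this pathway. Several members answer to other factors: GDF15 and SESN2 are known targets of the stress factor ATF4, and CCNG2 of the FOXO factors.

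Array medians lay between 60.04 and 61.56 and correlations of log2(signal + 16) between 0.9987 and 0.9991 within groups. ERCC6L signal was 239.9, 244.3 and 261.4 in shNC and 97.59, 97.49 and 97.83 in shERCC6L, which left 39.3%. All 10 markers of renal carcinoma cells examined (PAX8, PAX2 and KRT18 among them) lay at or above the median gene level of 6.68 on the log2(signal + 16) scale. Of these 10, NNMT (-0.66), CDH6 (-0.50) and EPAS1 (-0.36, log2 fold change) fell, PAX8 (0.34), VEGFA (0.11) and KRT18 (0.13) rose, and 4 did not pass an adjusted p of 0.05. All 13 measured markers of leukocytes, endothelium and fibroblasts lay below the median gene level, of which COL1A1 (mean signal 74.5 in shNC and 53.3 in shERCC6L) and PDGFRA (42.5 and 36.7) fell and the other 11 did not pass the test. Their part in the results was not tested. In a bulk sample, fewer cells with a transcript and less of it per cell cannot be told apart.

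Some members, though not most, held a motif of p53 or ATF4 just upstream of their starts. Windows of 250 bases before the start were searched on both strands, with no mismatch allowed. The motifs were the consensus half-site of p53, a palindrome of 10 letters, and TGATGNAA, the composite element read by ATF4 with C/EBP partners. RefSeq promoters (GRCh38.p14) were in the table used for 25 of the 29 genes. A half-site match was found in 4 of these 25, AEN, EI24, PLK2 and RPS27L. This is a larger share than the 5.53% of 27305 promoters, and the difference was not tested. No member had paired exact half-sites with a spacer of at most 13 bases. Only 8 of the 27305 promoters (0.0293%) had such a pair, so its absence from 25 says little, and pairs with mismatches were not searched. PLK3 alone had the composite element, found in 3.19% of promoters. A match is a description and not a binding site, and many p53 sites lie in introns or farther upstream, outside this window. The sequences below, each with 10 bases of flank where the window reaches that far, are the 4 half-site matches, shown because they stand beside unlike responses, and the composite element of PLK3. The match is in capitals. They lie at chr15:88621296-88621325 (+) for AEN, chr11:125569457-125569476 (+) for EI24, chr5:58460199-58460228 (-) for PLK2, chr15:63157517-63157546 (-) for RPS27L and chr1:44800234-44800261 (+) for PLK3. The AEN window is inside that gene's annotated interval, before the start of one of its transcripts.
AEN: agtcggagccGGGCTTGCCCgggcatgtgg
EI24: cgtgcggcccGGGCATGCCC
PLK2: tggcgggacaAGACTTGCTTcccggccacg
RPS27L: ggcctagagcAGACAAGCCCgccccgccgc
PLK3: agcttctgggTGATGTAAggccgggaat

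GDF15, the member that fell most, had neither match. Its window, chr19:18385908-18386157 (+), is printed whole so that it can be set against the others.
GDF15: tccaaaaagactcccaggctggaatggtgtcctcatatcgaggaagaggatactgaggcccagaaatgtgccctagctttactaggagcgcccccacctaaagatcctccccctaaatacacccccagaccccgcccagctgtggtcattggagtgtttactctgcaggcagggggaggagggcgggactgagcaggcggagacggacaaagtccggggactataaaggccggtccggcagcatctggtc

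Of the 29 genes, 8 were higher and 6 lower in shERCC6L and 15 did not pass an adjusted p of 0.05 on the brightest probe set. That is 48.3% of the members, against 31.6% of all genes (18.2% higher and 13.4% lower). Among the brighter genes, those whose level reached the median, 52.4% passed (32.8% higher and 19.6% lower). Of the 19 members in that range 13 passed, or 68.4%, with 7 higher and 6 lower, and of the 10 dimmer ones only PLK3 did. The difference between these shares was not tested. The changes were small. Their median log2 fold change was -0.012, against -0.011 over all genes, the range ran from -0.567 for GDF15 to 0.383 for AEN, and 0 members changed by 2-fold. For the brighter members alone the median was -0.074, against 0.036 over all brighter genes, and this difference was not tested. The groups did not overlap for 17 of the 29, 9 higher and 8 lower in shERCC6L, while 43.4% of all genes showed no overlap. Of the 9066 brighter genes, 5849 showed no overlap, and most members are brighter genes. A called change of at least 0.25 on the log2 scale was reached by 5 members, AEN, PLK3, CCNG1, CCNG2 and GDF15, and by 14.4% of all genes. It was reached by 2278 of the 9066 brighter genes. The plot of changes by role sets these genes beside each other.

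**Figure D1:**
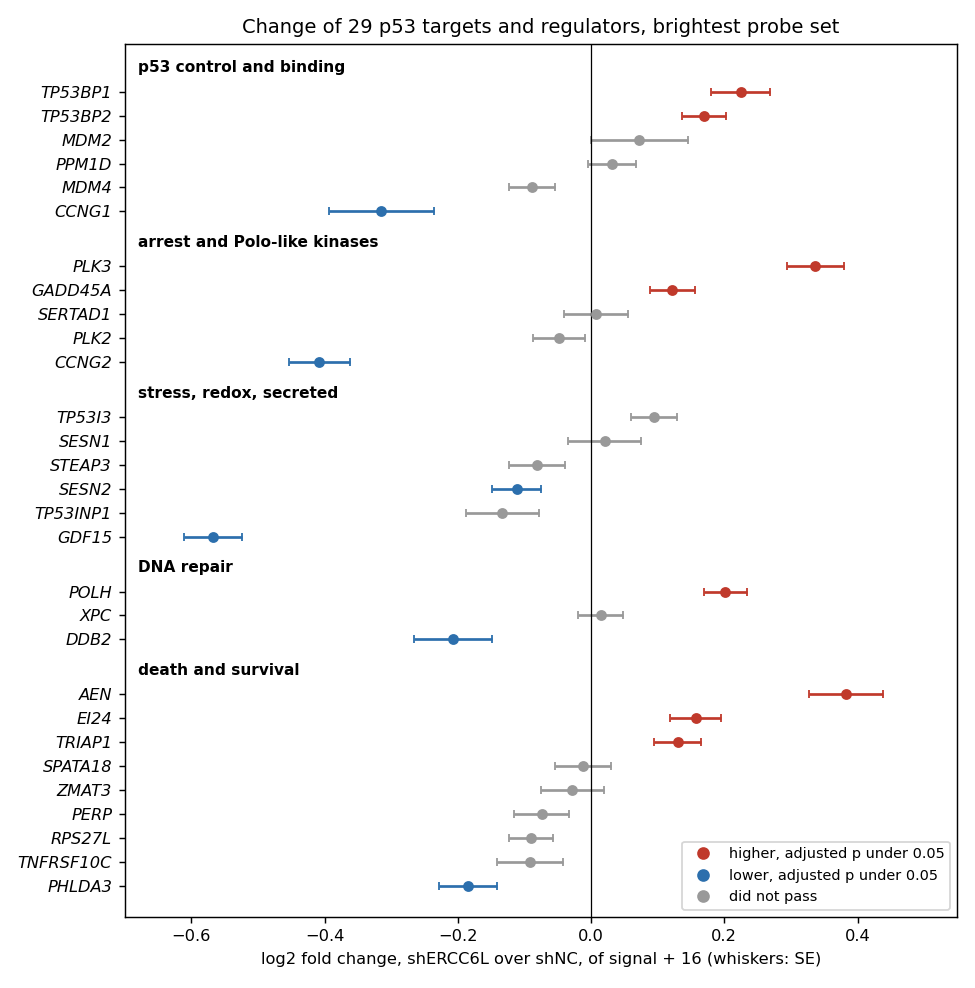
The horizontal axis gives the log2 fold change of signal + 16, shERCC6L over shNC, for the brightest probe set of each of 29 genes, grouped by role; points are limma estimates, whiskers their SE (n = 3 per group), and colour marks the call. Higher and lower genes stand in the same role groups, with GDF15 at -0.57 and AEN at 0.38 at the ends.

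Among the genes that hold p53 in check, neither of the main brakes passed on its brightest probe set. MDM2, the ubiquitin ligase that is both target and inhibitor of p53, read 78.54, 83.34 and 79.14 in shNC and 77.36, 80.24 and 99.68 in shERCC6L. A single shERCC6L array stood above the rest and the groups overlapped. On the log2 scale the change was 0.07 with an SE of 0.07 (n = 3 in each group; limma adjusted p = 0.52). It was -0.02 without shERCC6L replicate 3, and none of the 11 MDM2 probe sets passed (-0.05 to 0.17). MDM4, the relative that masks the activation domain of p53, read 131.2, 130.4 and 127.8 in shNC and 120.1, 118.1 and 125.3 in shERCC6L. Each shERCC6L array lay below each shNC array, but the change of -0.09 ± 0.04 did not pass (limma adjusted p = 0.0885). It passed with its probe sets averaged (-0.14, limma adjusted p = 0.00357), with quantile normalization (limma adjusted p = 0.039) and with a pseudocount of 64 (limma adjusted p = 0.0496). Over the 6 MDM4 probe sets, 3 fell and 3 did not pass, and all 6 estimates were negative, from -0.23 to -0.08.

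CCNG1, which encodes a cyclin-like protein that brings phosphatase 2A to MDM2, lies at chr5:163437571-163457640. It read 1150, 1332 and 1148 in shNC and 954, 880.3 and 1077 in shERCC6L. All shERCC6L arrays were lower, though 1077 came close to the lowest control. The fall was 0.32 ± 0.08 on the log2 scale (limma adjusted p = 0.0137), and without shERCC6L replicate 2 it was 0.25 and did not pass (limma adjusted p = 0.0516). Of its 5 probe sets, 4 fell and 1 did not pass. The phosphatase gene PPM1D, another target that dampens the p53 response, was at 0.03 ± 0.04, and none of its 4 probe sets passed.

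Both p53-binding proteins of the set rose slightly. TP53BP1 encodes 53BP1, a scaffold of double-strand break repair that is also part of a mitotic surveillance pathway to p53. Its mean signal went from 86.1 ± 3.14 to 103.3 ± 5.86 (SD, n = 3 in each group), or 0.22 ± 0.04 on the log2 scale (SE; limma adjusted p = 0.0041), and 2 of its 4 probe sets rose while 2 did not pass. TP53BP2 encodes ASPP2, which steers p53 towards death genes. It went from 442.7 ± 9.67 to 499.9 ± 3.51, a change of 0.17 ± 0.03 (limma adjusted p = 0.00383), and all 3 of its probe sets rose.

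**Figure D2:**
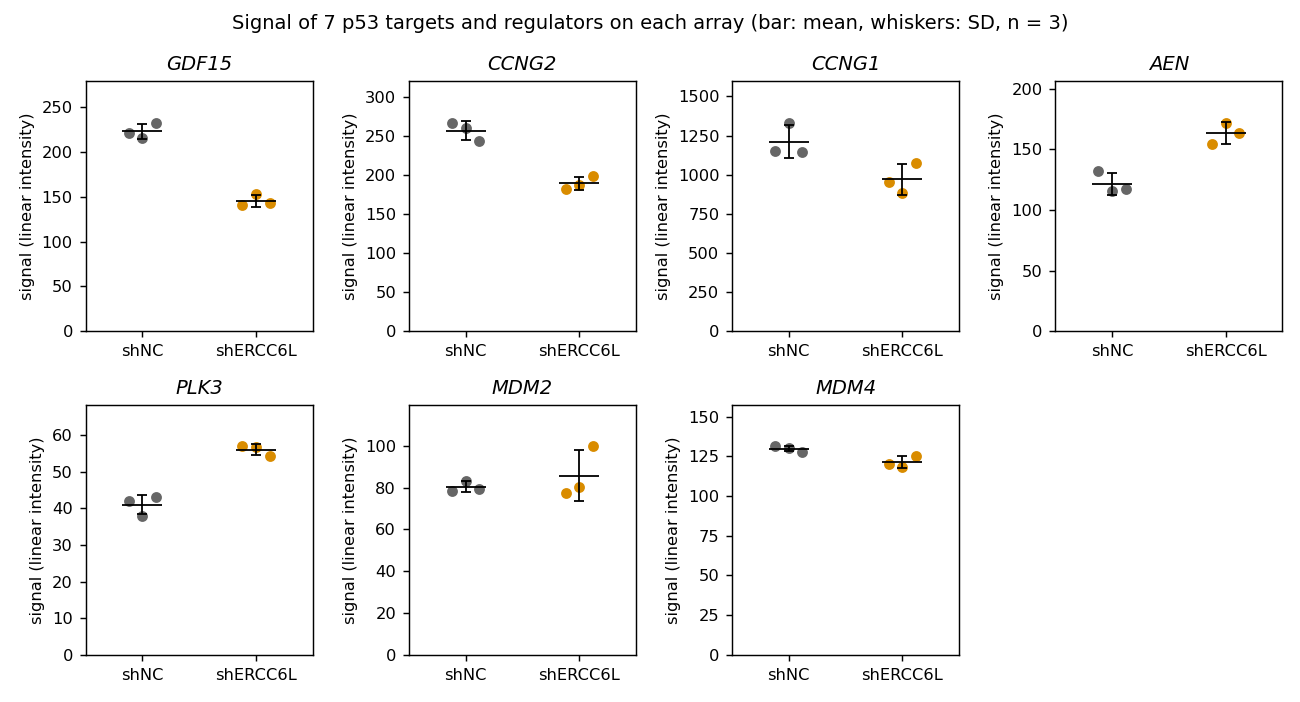
Each panel gives the linear array signal of 1 gene, from 0, with a point for each of 3 shNC and 3 shERCC6L arrays, a bar at the mean and whiskers for the SD. The groups stand apart for GDF15, CCNG2, CCNG1, AEN and PLK3, narrowly for MDM4, and overlap for MDM2, where 1 shERCC6L array reads 99.68.

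The genes of arrest and of the Polo-like kinases divided. CCNG2, an unconventional cyclin that slows the cell cycle, lies at chr4:77157207-77170060. It read 266.7, 260.2 and 242.8 in shNC and 182.2, 187.3 and 198.7 in shERCC6L, with a clear gap between the groups. It fell by 0.41 ± 0.05 (limma adjusted p = 1.6e-04). The second probe set fell too, by 0.29, while the 3 dimmer ones did not pass (-0.06 to -0.04), so that averaging them gave a fall of 0.17 (limma adjusted p = 0.00464). CCNG1 and CCNG2 are paralogues, and both were lower.

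PLK3, a stress-responsive Polo-like kinase that can phosphorylate p53, lies at chr1:44800377-44805990. Its single probe set read 41.94, 38.06 and 43.13 in shNC and 56.92, 56.85 and 54.24 in shERCC6L. The 3 shERCC6L arrays lay close together above all controls. It rose by 0.34 ± 0.04 (limma adjusted p = 2.9e-04). This is a dim gene, below the median level, and the estimate moved with the pseudocount, from 0.44 at 1 to 0.19 at 64. PLK2, its relative and a known p53 target, has a half-site match upstream but was at -0.05 ± 0.04 with overlapping groups, and none of its 4 probe sets passed (-0.05 to 0.04). GADD45A, which binds PCNA and restrains the mitotic kinase CDK1, rose by 0.12 ± 0.03 (limma adjusted p = 0.0222), from a mean of 2460 to 2678. That call was lost with a pseudocount of 1 and without any of 4 arrays in turn, shNC replicates 1 and 3 and shERCC6L replicates 2 and 3 (limma adjusted p = 0.0579 to 0.0774). SERTAD1, a regulator of CDK4 and E2F activity, was at 0.01 ± 0.05.

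None of the 6 stress, redox and secreted members rose, and GDF15 and SESN2 fell. The share called was 33.3%, against 31.6% of all genes (13.4% lower), and the difference was not tested. GDF15 encodes a secreted cytokine of stressed cells and lies at chr19:18386158-18389176. It read 221.3, 215.8 and 232.8 in shNC and 140.4, 153.5 and 142.8 in shERCC6L. The highest shERCC6L array was far below the lowest control, and the mean fell from 223.3 ± 8.63 to 145.6 ± 6.98 (SD, n = 3 per group). The fall of 0.57 ± 0.04 (limma adjusted p = 1.8e-05) is 1.48-fold. The next 2 probe sets fell by 0.62 and 0.71, and the 2 dimmest did not pass (-0.07 and -0.06).

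The sestrins restrain the growth kinase mTORC1. SESN2 fell by 0.11 ± 0.04 (limma adjusted p = 0.0438), from 242.6 to 223.2, with both probe sets lower and no overlap between the groups. The call is marginal: it was lost with a replicate block (limma adjusted p = 0.0541) and without any single array (0.0513 to 0.149). SESN1 was at 0.02 ± 0.05 with overlapping groups. TP53I3, a quinone oxidoreductase, was at 0.09 ± 0.03 (limma adjusted p = 0.069) with all 3 shERCC6L arrays above the controls, and it passed with quantile normalization (0.12, limma adjusted p = 0.0251), with median centring (limma adjusted p = 0.0484) and in the fit to averaged probe sets (limma adjusted p = 0.0296).

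TP53INP1, a promoter of autophagy and growth arrest, had a pair of dim probe sets of nearly equal brightness that differed in size. The brighter one gave -0.13 ± 0.06 with overlapping groups and did not pass (limma adjusted p = 0.101). The other read 32.98, 29.55 and 33.71 in shNC and 20.06, 20.75 and 22.21 in shERCC6L, a fall of 0.38 ± 0.04 (limma adjusted p = 2.8e-04). All controls lay above all shERCC6L arrays there. Averaged, the gene fell by 0.26 (limma adjusted p = 0.00149), and it also passed without shNC replicate 2 (limma adjusted p = 0.00777). STEAP3, a ferrireductase, was at -0.08 ± 0.04 (limma adjusted p = 0.193), 1 of its 3 probe sets fell, and averaged it passed at -0.10 (limma adjusted p = 0.0265).

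The repair members moved in different directions. DDB2 and XPC encode the sensors that open nucleotide excision repair, and POLH encodes the polymerase that copies past ultraviolet lesions. DDB2 fell by 0.21 ± 0.06 (limma adjusted p = 0.0243), from 251.1 to 215.3, on both of its probe sets. This call was lost without shNC replicate 1 or 3 and without shERCC6L replicate 1 or 3 (limma adjusted p = 0.0626 to 0.078). XPC, at 0.01 ± 0.03, did not pass. POLH rose by 0.20 ± 0.03 (limma adjusted p = 0.0013), from 134.8 to 157.4. Its arrays did not overlap, 159, 157.8 and 155.4 in shERCC6L against 137.5, 133.5 and 133.5 in shNC, and 3 of its 4 probe sets rose while the dimmest, at -0.07, did not pass.

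Of the 9 members that act in death and survival, 3 rose, 1 fell and 5 did not pass. The share called was 44.4%, against 31.6% of all genes. Among the 6 brighter ones it was 66.7%, against 52.4% of all brighter genes, and these differences were not tested. AEN, a nuclease that helps degrade DNA in apoptosis, lies at chr15:88604683-88632281 and had 1 probe set. It read 132.3, 115.4 and 117.4 in shNC and 154.4, 172 and 163.9 in shERCC6L. The lowest shERCC6L array lay well above the highest control. The rise of 0.38 ± 0.06 (limma adjusted p = 6.8e-04) was 1.30-fold, the largest rise among the 29 brightest probe sets.

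EI24, an endoplasmic reticulum protein linked to autophagy and death, rose by 0.16 ± 0.04 (limma adjusted p = 0.0112), from 1052 to 1174, and all 7 of its probe sets rose by 0.13 to 0.20. These probe sets can share target sequence and are not independent. TRIAP1, a small mitochondrial survival factor, rose by 0.13 ± 0.04 (limma adjusted p = 0.0199), a call lost with quantile normalization (limma adjusted p = 0.0599), without shNC replicate 2 and without shERCC6L replicate 3 (limma adjusted p = 0.0662 and 0.064). PHLDA3, which competes with the kinase AKT for membrane lipids, fell by 0.18 ± 0.04 (limma adjusted p = 0.0102), from 324.6 to 283.5, with 2 of 3 probe sets lower.

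RPS27L, a ribosomal protein paralogue that binds MDM2 and has a half-site match, was at -0.09 ± 0.03 (limma adjusted p = 0.0668). Its arrays did not overlap, at 2639, 2630 and 2663 in shNC and 2428, 2504 and 2517 in shERCC6L. It passed with a pseudocount of 64 (limma adjusted p = 0.0131), in a fit to the brighter genes alone (limma adjusted p = 0.0384) and with an intensity trend (limma adjusted p = 0.0143), but not with probe sets averaged. The RNA-binding protein gene ZMAT3 was at -0.03 ± 0.05, the membrane protein gene PERP at -0.07 ± 0.04 and the decoy death receptor gene TNFRSF10C at -0.09 ± 0.05. SPATA18, which acts in mitochondrial quality control, was at -0.01 ± 0.04 and was the dimmest member (mean signal 16.2 in shNC). None of the 11 probe sets of these last 4 genes passed. Of the 4 measured genes with a half-site match, AEN and EI24 rose and PLK2 and RPS27L did not pass.

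Over all 93 probe sets, 19 rose, 20 fell and 54 did not pass, against 28.7% passing among all probe sets (16.8% higher and 11.9% lower). Different probe sets of a gene did not pass in opposite directions for any of the 29 genes. The plot of all probe sets shows where a gene rests on 1 of them.

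**Figure D3:**
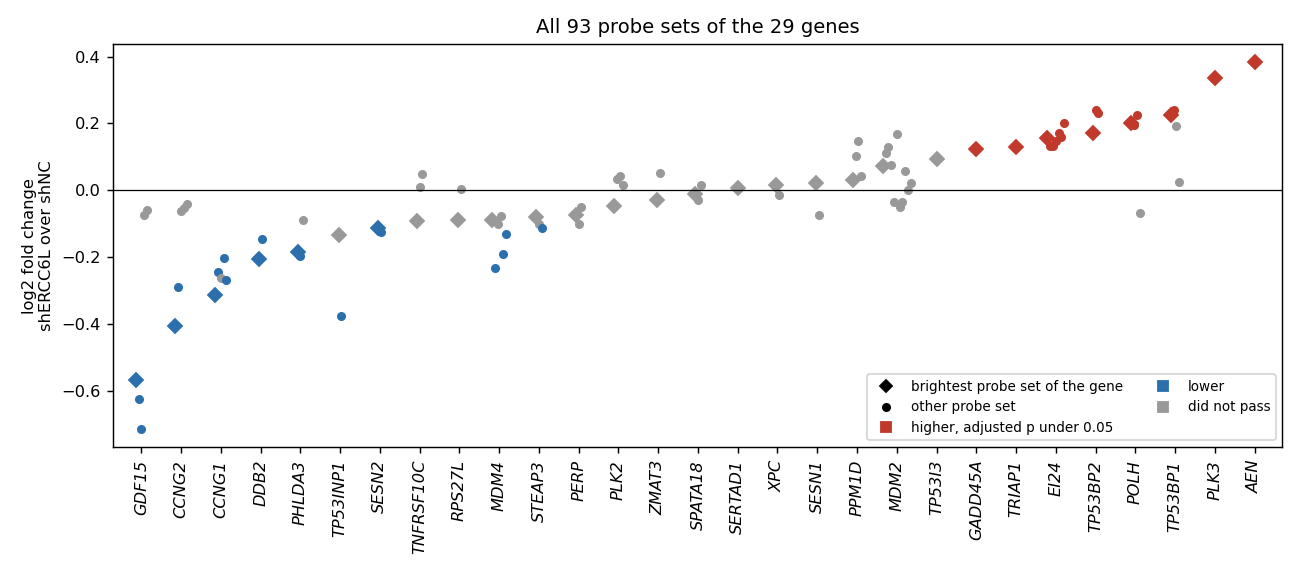
Each point is 1 of 93 probe sets, with its gene on the horizontal axis (ordered by the brightest probe set, drawn as a diamond) and its log2 fold change, shERCC6L over shNC, on the vertical axis; colour marks the call over all probe sets. The 7 EI24 points lie together above 0. The 11 MDM2 points run from -0.05 to 0.17 with none passing, and the GDF15 points divide into 3 that fell and 2 near 0.

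Other genes of the pathway were called in both directions. Of 29 measured further p53 targets, 8 were higher, 8 lower and 13 did not pass, with a median log2 fold change of -0.002. That is 55.2%, against 31.6% of all genes, and among the brighter ones, at or above the median level, it was 15 of 24 (62.5%) against 52.4%. With probe sets averaged the division was uneven, with 11 higher and 5 lower. The 4 with the smallest p were KITLG, TNFRSF10A, CD82 and TNFRSF10B. The death receptor genes TNFRSF10A and TNFRSF10B rose by 0.46 ± 0.04 and 0.50 ± 0.05, and CD82, a tetraspanin that restrains migration, rose by 0.42 ± 0.04. KITLG, the ligand of the receptor KIT, fell by 0.42 ± 0.03, but with its probe sets averaged it was at -0.03 and did not pass (limma adjusted p = 0.434).

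The best known targets were picked out after their values were seen. CDKN1A, which encodes the cell cycle inhibitor p21, read 310.7, 296.7 and 291.1 in shNC and 328.7, 319.3 and 327.8 in shERCC6L. The groups did not overlap, but the rise was only 0.11 ± 0.04 (limma adjusted p = 0.0421) and was lost in 9 of 16 alternatives, among them a replicate block and 5 of the 6 fits that leave out an array, all but the one without shNC replicate 1 (limma adjusted p up to 0.164). Of the death genes, PMAIP1 rose by 0.16 ± 0.04, BBC3 fell by 0.25 ± 0.05 (by 0.12 with probe sets averaged), and BAX and FAS, at 0.10 ± 0.04 and -0.04 ± 0.04, did not pass. BAX passed in 6 of 16 alternatives, among them the fit to averaged probe sets (0.17, limma adjusted p = 0.00158).

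Of 15 measured genes that act upstream of p53 or on it, 4 were higher and 3 lower, with a median of 0.019. All 7 were among the 13 brighter ones (53.8%, against 52.4% of all brighter genes). RCHY1, which encodes the p53 ubiquitin ligase Pirh2, read 195, 169 and 185 in shNC and 321.5, 344.3 and 360 in shERCC6L. It rose by 0.85 ± 0.06, more than any member, and by 0.41 with its probe sets averaged (limma adjusted p = 8.6e-05). The checkpoint kinase genes ATR and CHEK1 rose by 0.34 ± 0.04 each, CHEK1 not on the probe set without shared probes (0.03). CREBBP, an acetyltransferase that works with p53, fell by 0.33 ± 0.04, by 0.17 with probe sets averaged, and did not pass on the probe set without shared probes (-0.11). Such probe sets are those whose names carry neither of the manufacturer's marks for probes that other sequences share.

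The calls lay mostly on one side in a pair of neighbouring programmes. Of ATF4 and 11 of its targets, 10 fell and 0 rose (median -0.374), with SLC7A11, a cystine transporter, at -1.21 ± 0.04 and ASNS, asparagine synthetase, at -1.19 ± 0.04. TRIB3, at 0.05 with overlapping groups, and VLDLR, at -0.10, did not pass. All but 1 of these 12 are brighter genes, of which 9 fell, against 19.6% lower among all brighter genes. GDF15 and SESN2 are known to belong to that programme as well, and whether their falls go with it was not tested. Of 14 cell cycle genes that p53 is known to lower through p21 and the DREAM complex, 12 rose and 1, FOXM1, fell (median 0.328), with BIRC5 at 0.66 ± 0.03 (0.41 with probe sets averaged) and AURKA at 0.57 ± 0.04. All 14 are brighter genes, of which 32.8% were higher over the whole array. Both lists were chosen with earlier results of these data known, which can favour calls on one side. No difference between these lists and the p53 members was tested.

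**Figure D4:**
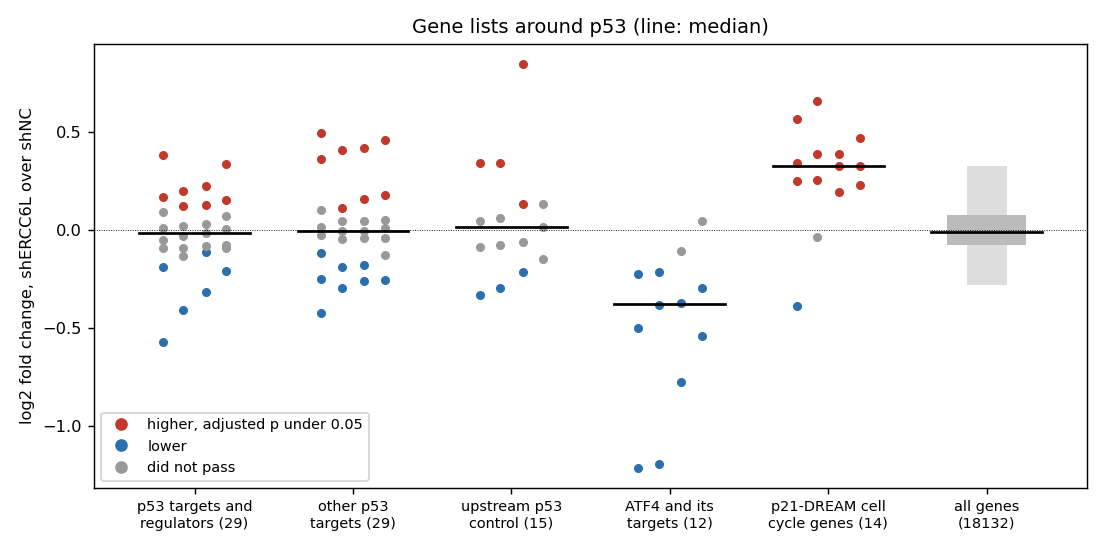
Points are genes, on their brightest probe set, in 5 lists; the vertical axis is the log2 fold change, shERCC6L over shNC, black lines are medians, and for all 18132 genes the wide and narrow grey boxes span the middle from percentile 25 to 75 and from percentile 5 to 95. The p53 members (median -0.012) and the other p53 targets (-0.002) spread to both sides of 0, while the ATF4 list has its median at -0.374 and the DREAM list at 0.328.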

How the data were processed

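RNA was measured on 6 single-channel Affymetrix arrays, 3 per group, from 6 ug total RNA each per the labels' protocols. The authors deposited linear intensities of probe sets, which, per the submitters' processing notes, came from Affymetrix Expression Console. Its version and the background correction and normalization applied are not given in the sources used. There were no detection calls, so the background of dim probe sets is unknown. The small number of arrays limits precision.

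Of 49395 probe sets, 102 were controls, 44988 others carried a single symbol in the platform annotation of GEO, 1832 several and 2473 none. Intensities were transformed to log2(signal + 16), which understates changes of dim genes, and each gene was represented by its brightest probe set over all 6 arrays. Groups were compared across all 18132 genes by lmFit and eBayes of limma (version 3.58.1, R 4.3.3; 2-sided, Benjamini-Hochberg adjustment over all genes, threshold 0.05), and separately across all 49293 probe sets that were not controls. The code was tested on simulated data. The members and lists were chosen with earlier results of these data known. Values on every array are given for members past the threshold with a change of at least 0.25, and for MDM2 and MDM4, and, chosen after their values were seen, for POLH, RPS27L and 1 TP53INP1 probe set. Of the lists of other targets and upstream genes the 4 members of smallest p are named, and of the ATF4 and DREAM lists 2. Others were named after their values were seen.

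Nothing in the labels says that same-numbered arrays share a culture or day, so numbers were not treated as pairs. Deviations of same-numbered arrays from their group means correlated at 0.24, -0.14 and -0.01 for replicates 1, 2 and 3, which cannot exclude pairing. Alternatives were a replicate block, median centring, quantile normalization, pseudocounts of 1 and 64, a fit to the brighter genes alone (at or above the median level), averaged probe sets, robust estimation with an intensity trend, weights per array, each array left out and, added after seeing the data, probe sets without shared probes.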

Additional observations from a re-analysis of the deposited data

How the results depend on the processing

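Over 453 comparisons of a member with its value under an alternative, 400 kept direction and side of the threshold, 23 lost the call, 12 gained it and 18 changed sign. AEN, PLK3, POLH, EI24, PHLDA3, TP53BP1, TP53BP2, CCNG2 and GDF15 kept their calls under every alternative run. The sign changes concerned 7 members that did not pass in any fit. MDM2 was at -0.023 without shERCC6L replicate 3 (-0.023 to 0.132 over the 6 arrays left out in turn). PLK2 was at 0.011 with probe sets averaged and 0.042 without shared probes. SERTAD1 was at -0.011 with array weights, -0.037 without shNC replicate 2 and -0.017 without shERCC6L replicate 1 (-0.037 to 0.048). SESN1 was at -0.028 with probe sets averaged and -0.033 without shNC replicate 3 (-0.033 to 0.08). XPC was at -0.017 with quantile normalization, -0.001 averaged and -0.002 without shNC replicate 1 (-0.002 to 0.034). ZMAT3 was at 0.011 averaged, 0.051 without shared probes, and 0.012 and 0.006 without shNC replicate 2 and shERCC6L replicate 2 (-0.054 to 0.012). SPATA18 was at 0.006 with quantile normalization, and 0.02 and 0.013 without shNC replicate 2 and shERCC6L replicate 3 (-0.034 to 0.02). FAS, which is not a member, was at 0.022 averaged and 0.083 without shared probes. The cause of these was not tested.

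With each array left out in turn, 6 to 8 members were higher and 4 to 6 lower, and 16 to 18 member probe sets were higher and 13 to 17 lower, the 13 without shERCC6L replicate 2 against 20 with all arrays. The members' median ran from -0.033 to 0.012, and the change of ERCC6L from -1.242 to -1.183. With a replicate block 8 members were higher and 5 lower, SESN2 being the call lost, and 20 and 16 member probe sets. Averaging probe sets gave 11 further p53 targets higher and 5 lower instead of 8 and 8, and 9 members higher and 9 lower instead of 8 and 6. In a fit to the brighter genes alone the members' median was -0.074, over the brighter members only, against 0.036 over all brighter genes. Quantile normalization and median centring moved the median of all genes by 0.005 and 0.008. The dimmest members, SPATA18, TP53INP1, TP53I3 and TNFRSF10C, have no detection call, and the pseudocount understates their changes.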
